A study of Mus musculus with 3 samples.

Results

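Acute phase proteins are secreted defence proteins whose blood levels rise during infection, and 10 genes that encode them were followed here in RAW264.7 cells, a mouse macrophage cell line: *Saa1*, *Saa2*, *Saa3*, *Lcn2*, *Hp*, *Cp*, *C3*, *Cfb*, *Ptx3* and *Orm1*. The 10 are among 36870 gene names on the array and were taken by name, with all 17 of their probes. They were chosen by name with their intensity differences between LOC1 or LOC3 and LPS already known, so these differences are given as a description and not as a test. The study asked how *Lactiplantibacillus plantarum* strains from tea leaves change the response of macrophages to LPS, a TLR4 agonist from the outer membrane of Gram-negative bacteria. RNA was measured on 1-colour Agilent arrays, 3 in all and 1 per condition. The LPS group had no bacteria and received LPS for 3 h. The LOC1 and LOC3 groups were cultured with that strain for 12 h by the series record, or longer by the methods, and then received LPS for 3 h. The bacteria were washed away before LPS, by the methods, and the LPS dose is given differently in different parts of the study. No genotype differed between the groups. RAW264.7 is a transformed line, each condition is 1 sample of it, and unchallenged cells enter only through the ratios that the authors deposited.

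The acute phase response is best known in liver, where IL-6 and IL-1 act through STAT3, C/EBP and NF-κB factors on the genes of secreted plasma proteins. Macrophages make some of the same proteins themselves after LPS. Serum amyloid A proteins bind lipoproteins and call in leukocytes, lipocalin 2 takes iron-carrying siderophores away from bacteria, haptoglobin and ceruloplasmin bind haemoglobin and copper, and C3 and factor B drive the alternative pathway of complement.

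On each array 59305 spots were not controls, and 47.8 to 51.9% of the probes were well above background. No spot was saturated. All 10 macrophage marker genes were well above background, and the brightest of them reached 185159 to 244528. Of the 10 hepatocyte markers 3 were detected on at least 1 array (*Tat*, *Ttr* and *Serpina1a*), none over an intensity of 33.5. The others, among them *Alb* and *Apoa1*, were at background on all 3 arrays. Of the 10 neutrophil markers 4 were well above background, with the summed intensity of the list between 788 and 892, while *S100a9*, *Ltf*, *Ngp* and *Ly6g* were at background. With 1 array per condition there is no SD, test or p-value for a difference between conditions. The log2 intensity was set relative to the 75th percentile of its array, and a difference is the value of one array minus that of another on this log2 scale. The errors given (SE) come from the scanner software's error for each spot. For bright spots such as that of *Saa1* it was 10% on every array, which gives 0.20 for a log2 difference. This is a value of the software's error model and was not estimated from repeated spots. Repeated spots of the same probe gave an SD of 0.06 for a log2 difference of bright probes (269 probes) and 0.28 for dim ones (8 probes). Neither includes the variation between cultures.

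The serum amyloid A genes lie together on mouse chromosome 7, and their upstream sequences and probes are shown because *Saa2* differed far more from LPS than *Saa1* and *Saa3* did. The first 30 of the 60 bases of each probe are printed 5′ to 3′, as the array files give them.
Saa1 probe: gcagtggcaaagaccccaattactacagac
Saa2 probe: cttcctatctaggaacactgaagatgctct
Saa3 probe: gttcagaagttcacgggacatggagcagag
In mouse genome build mm9 the *Saa1* probe lies at chr7:53996070-53996129 on the minus strand, the *Saa2* probe at chr7:54009535-54009594 on the plus strand and the *Saa3* probe at chr7:53967559-53967618 on the minus strand. The longest run of bases shared by any pair of these probes was 5 of 60. Whether a probe also matches the transcript of a related gene was not tested.

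The 250 bases before the RefSeq start in build GRCm38.p6 are printed for *Saa2* and *Lcn2*, which differed most from LPS in each direction among the members with an entry, and for *Saa1* and *Saa3* as relatives of *Saa2*. Capitals mark matches to the NF-κB consensus (κB) or to the C/EBP motif TTNNGNAA on either strand, and in *Saa1* a κB match and a C/EBP match overlap.
Saa1, chr7:46742981-46743230, minus strand: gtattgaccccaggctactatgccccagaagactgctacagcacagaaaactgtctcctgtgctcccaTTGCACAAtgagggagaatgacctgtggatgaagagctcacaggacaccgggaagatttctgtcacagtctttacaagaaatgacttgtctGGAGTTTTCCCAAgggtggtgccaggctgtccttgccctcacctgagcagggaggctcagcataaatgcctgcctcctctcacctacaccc
Saa2, chr7:46751583-46751832, plus strand: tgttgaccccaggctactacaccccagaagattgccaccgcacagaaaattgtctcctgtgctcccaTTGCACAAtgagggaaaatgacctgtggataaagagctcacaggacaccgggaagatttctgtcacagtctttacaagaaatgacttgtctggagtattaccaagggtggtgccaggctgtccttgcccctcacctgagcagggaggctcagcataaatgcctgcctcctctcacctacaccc
Saa3, chr7:46715677-46715926, minus strand: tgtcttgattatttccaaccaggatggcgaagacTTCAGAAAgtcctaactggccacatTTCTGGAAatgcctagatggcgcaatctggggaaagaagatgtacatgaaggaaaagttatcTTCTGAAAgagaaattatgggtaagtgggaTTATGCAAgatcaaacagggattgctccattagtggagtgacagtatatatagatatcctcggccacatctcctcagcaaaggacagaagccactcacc
Lcn2, chr2:32387740-32387989, minus strand: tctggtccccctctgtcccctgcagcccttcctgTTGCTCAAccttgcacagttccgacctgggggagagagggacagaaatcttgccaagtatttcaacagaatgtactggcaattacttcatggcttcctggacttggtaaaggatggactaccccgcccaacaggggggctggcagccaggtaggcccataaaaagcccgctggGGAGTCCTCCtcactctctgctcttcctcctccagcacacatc
The windows of *Saa1* and *Saa2* were identical at 94.8% of 251 aligned columns, with 11 substitutions, whereas *Saa1* and *Saa3* were identical at 48.5%. *Saa1* held a κB match from 91 to 82 bases before the start. *Saa2* held no κB match, nor did *Saa3*, *Cp*, *C3* and *Ptx3*. The substitutions T165A and C168A, counted from 1 at the 5′ end of the *Saa1* window with the *Saa1* base first, lie inside that match. *Lcn2* held a κB match from 43 to 34 bases before its start. Among 32851 mouse promoter windows of this length 9.55% held a κB match and 36.8% a C/EBP match. Each of the 7 members with an entry held at least 1 C/EBP match, with 4 in *Saa3* and 3 in *C3*, and none held the STAT motif TTCNNNGAA, found in 7.02% of all windows. The motifs were chosen after the sequences were seen, and a match of letters does not show that a factor binds there.

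In the deposited log2 ratios, the authors compared each array with unchallenged macrophages and listed only values past 2-fold. Of the 17 probes of the members, 11 probes of 8 genes are listed, and all 11 have listed ratios past 2-fold above unchallenged cells in all 3 columns. Over all 13135 listed probes, 30.5% are listed that way with LPS and 18.4% in all 3 columns. A listed ratio is not always a measured rise, since 1 of the *Cp* probes was at background on all 3 arrays and *Hp* was at background with LOC1. *Saa3* had ratios of 12.50 after LPS alone, 11.73 with LOC1 and 12.18 with LOC3, so its RNA was 5781-fold above unchallenged cells in the first of these. For *Saa1* the ratios were 8.60, 7.49 and 8.01 in the same order, 389-fold after LPS alone. In all 3 conditions both genes stayed far above unchallenged macrophages. *Saa2* was listed at 7.07, 3.41 and 4.34. The signal that this ratio implies for unchallenged cells was too dim to be told from background by the limit of the LPS array, which stands in for the unchallenged array that was not analysed here, so its rise with LPS is given as at least 28.9-fold. The 3 amyloid genes thus kept the same order of conditions, LPS first, then LOC3, then LOC1.

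*Lcn2* was listed for its dimmer probe at 6.95 with LPS, 124-fold, and at 8.24 with LOC1 and 8.06 with LOC3. *C3* was listed at 3.67, which is 12.7-fold, and at 4.48 and 4.54 with the strains. For both genes the ratios with the strains lay above that with LPS alone. *Cfb*, the serine protease that is the partner of C3 in the alternative convertase, was listed at 9.86, 8.98 and 9.29 for its brightest probe, at least 175-fold with LPS. Its other probe, at least 31.1-fold, gave 7.19, 6.37 and 6.66. *Hp* had 3.51, 1.07 and 1.93, at least 4.96-fold with LPS, and its ratio with LOC1 gives no fold because both signals behind it were under the limit of detection. The listed *Cp* probes had 4.80 and 4.39 with LPS, 27.9-fold and 21.0-fold. With LOC1 and LOC3 the first had 4.83 and 4.87, and the second 3.56 and 3.90. Another *Cp* probe at 1.81 was not well above background and gives no fold. The brightest probes of *Lcn2* and *Cp* and the dimmer probe of *C3* are not listed.

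**Figure D1:**
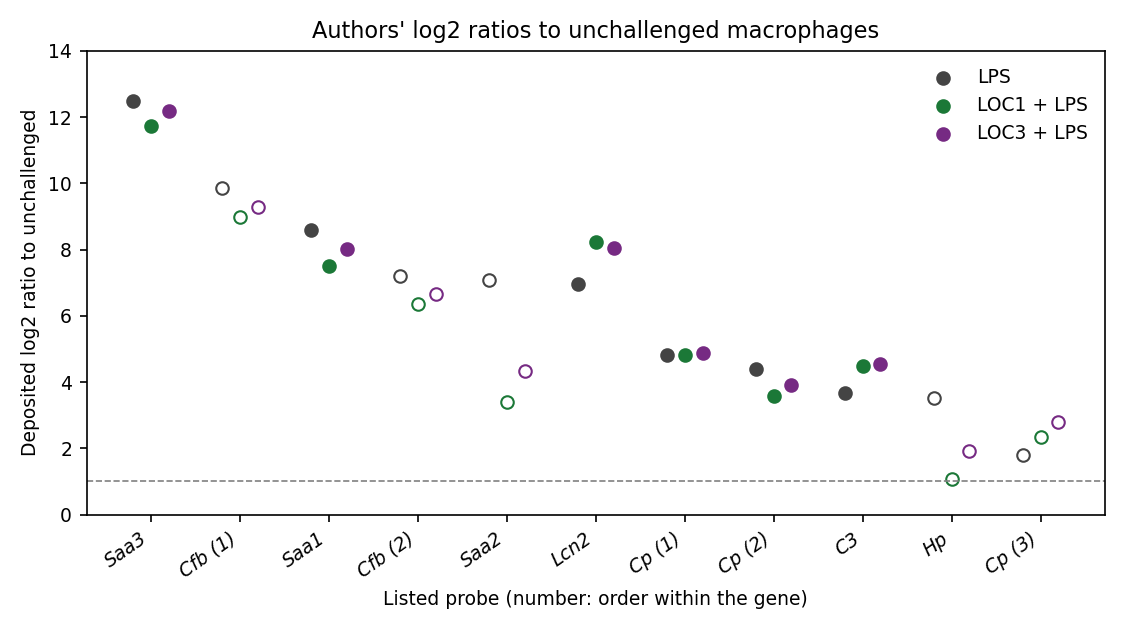
The authors' deposited log2 ratio to unchallenged macrophages (vertical axis) is plotted for the 11 listed probes of 8 acute phase genes on the LPS, LOC1 + LPS and LOC3 + LPS arrays. Open circles are probes whose rise with LPS is only a bound or gives no fold, the dashed line is the 2-fold limit of the list, and all points lie above it, with *Lcn2* and *C3* higher with both strains than with LPS.

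Between the strain arrays and the LPS array, 8 of the 10 genes could be compared, and *Ptx3* and *Orm1* were not well above background on any array. With LOC1, *Saa1*, *Saa2* and *Hp* were at least 2-fold lower, 3 of 8, and *Lcn2* was at least 2-fold higher, 1 of 8. Over the 20018 genes compared with LOC1, 3.81% passed 2-fold downward and 2.49% upward. With LOC3, *Saa2* and *Hp* were lower and *Lcn2* was higher, against 3.18% and 2.97% of 19789 genes. *Saa2*, *Hp* and *Lcn2* passed with both strains, as did 2.48% of 19421 genes downward and 1.13% upward. Because the members were chosen with these differences known, nothing is read from the excess over those shares. The median difference of the 8 genes was -0.85 with LOC1 and -0.48 with LOC3, beside 0.0015 and 0.03 over all genes compared. Both comparisons use the same LPS array, so an unusual signal on that array would move both. In bulk RNA, fewer cells that express a gene and less RNA per cell cannot be told apart.

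**Figure D2:**
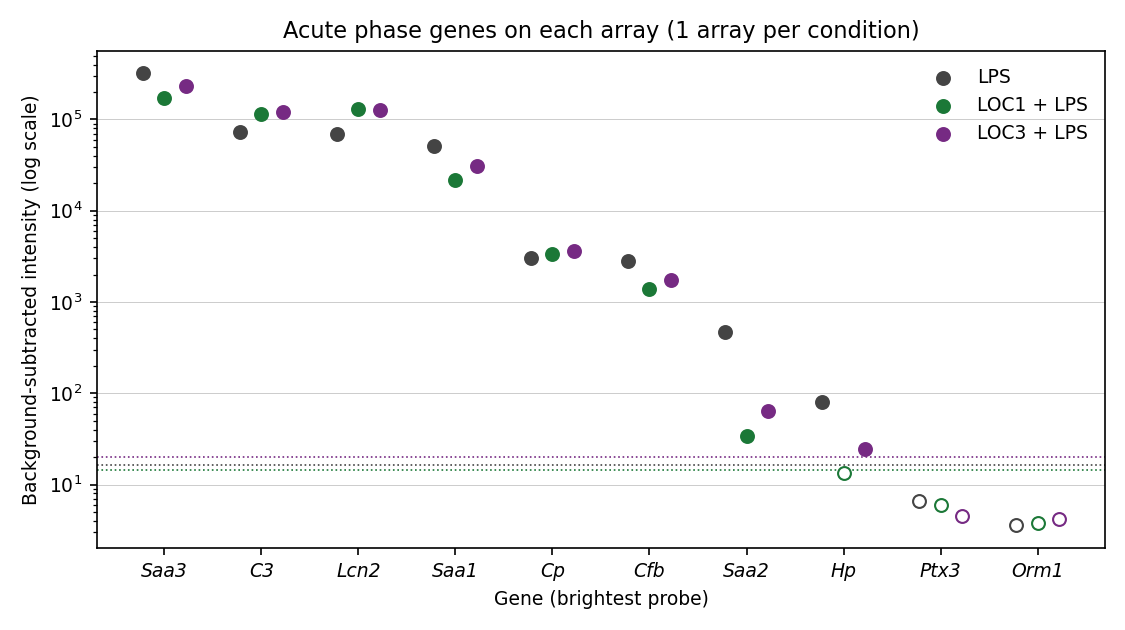
Background-subtracted intensity on a log axis is plotted for the brightest probe of each of the 10 genes on the 3 arrays, 1 point per array. Filled points are well above background, open points are not, and dotted lines give the limit of detection of each array (its lowest detected signal); *Saa2* fell from 471 to 33.7 with LOC1 and 64.6 with LOC3, and points of different genes cannot be compared because their probes differ.

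The amyloid genes all had values below LPS with both strains, and *Saa2* by far the most. The LPS array gave *Saa2* an intensity of 471, the LOC1 array 33.7 and the LOC3 array 64.6. Its log2 difference from LPS was -3.69 (SE 0.26) with LOC1 and -2.76 (SE 0.23) with LOC3, leaving 7.74% and 14.7% of the LPS value. Among 17405 genes detected on every array, 1 gene was lower than *Saa2* with LOC1 and 3 were lower with LOC3. *Saa2* was dim with the strains, and under normexp background correction, which added an offset of 50, its differences were -2.29 and -1.90. The readings of *Saa1* were 51796 for LPS, 21709 for LOC1 and 31065 for LOC3. It was lower by 2.21-fold with LOC1 (-1.14, SE 0.20), and its difference with LOC3 was -0.63 (SE 0.20), under 2-fold. *Saa1* with LOC1 fell short of 2-fold, at -0.93, when arrays were scaled by their medians. *Saa3*, the amyloid gene best known from macrophages, had the smallest differences of the 3. Its intensity was 320239, 170092 and 233663, and its differences were -0.80 and -0.35 (SE 0.20 each), both under 2-fold.

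*Lcn2* went the other way. The intensity of its brightest probe was 68833 for LPS, 130398 for LOC1 and 128129 for LOC3, both strains being above LPS. The difference was 1.03 with LOC1 and 1.0 with LOC3 (SE 0.20 each), so that both lay on the edge of 2-fold. Under quantile normalization these were 0.97 and 0.90, under 2-fold. The dimmer probe, which crosses an exon junction, read 18628, 41130 and 36377, with differences of 1.26 and 1.07. *Lcn2* was thus higher with either strain on both of its probes. Of those 17405 genes, 286 were higher than *Lcn2* with LOC1 and 278 with LOC3.

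The complement genes *C3* and *Cfb* differed from LPS in opposite directions, in each case under 2-fold. *C3*, the central protein of the cascade, read 72762 on the LPS array, 115045 on the LOC1 array and 120542 on the LOC3 array. Its differences were 0.77 and 0.83 (SE 0.20 each), and its other probe gave 0.78 and 0.83. When arrays were scaled by their medians *C3* passed 2-fold with LOC3, at 1.02. *Cfb* had intensities of 2847, 1402 and 1736 on its brightest probe and 507, 259 and 319 on the other. Its differences were -0.91 with LOC1 and -0.61 with LOC3 (SE 0.20 each), and -0.85 and -0.56 on the other probe. For each of these genes both probes therefore gave nearly the same difference.

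*Hp*, the haptoglobin gene, was dim. Its intensity was 80.9 with LPS and 24.5 with LOC3, and the 13.5 read with LOC1 was not well above background. With LOC1 *Hp* was at least 5.15-fold lower if its true signal lay no higher than the dimmest detected signal of that array (14.5). Its difference with LOC3 was -1.62 (SE 0.31). Under normexp background correction these shrank to a bound of -0.90 and to -0.60, under 2-fold. *Cp*, the copper-carrying ferroxidase, was read by 5 probes that did not move together. Its brightest probe read 3042 with LPS, 3359 with LOC1 and 3665 with LOC3, differences of 0.26 and 0.37 (SE 0.20 each). A probe for an Ensembl transcript, at chr3:19869171-19869230 of mm9, read 1407, 715 and 907, differences of -0.86 and -0.53. A probe at chr3:19874934-19874993 read 624, 574 and 592 and differed by -0.01 and 0.03. These probes lay above, below and at the LPS value, so the sign for *Cp* depends on the probe. Of the dim ones, 1 read 24.1, 29.9 and 22.2, and the other was not well above background on any array. *Ptx3*, a long pentraxin, read 6.59, 5.91 and 4.55, and the probe named for *Orm1* read 3.58, 3.79 and 4.24. Neither gene gives a fold, and the accessions of the *Orm1* probe also name *Orm2*.

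**Figure D3:**
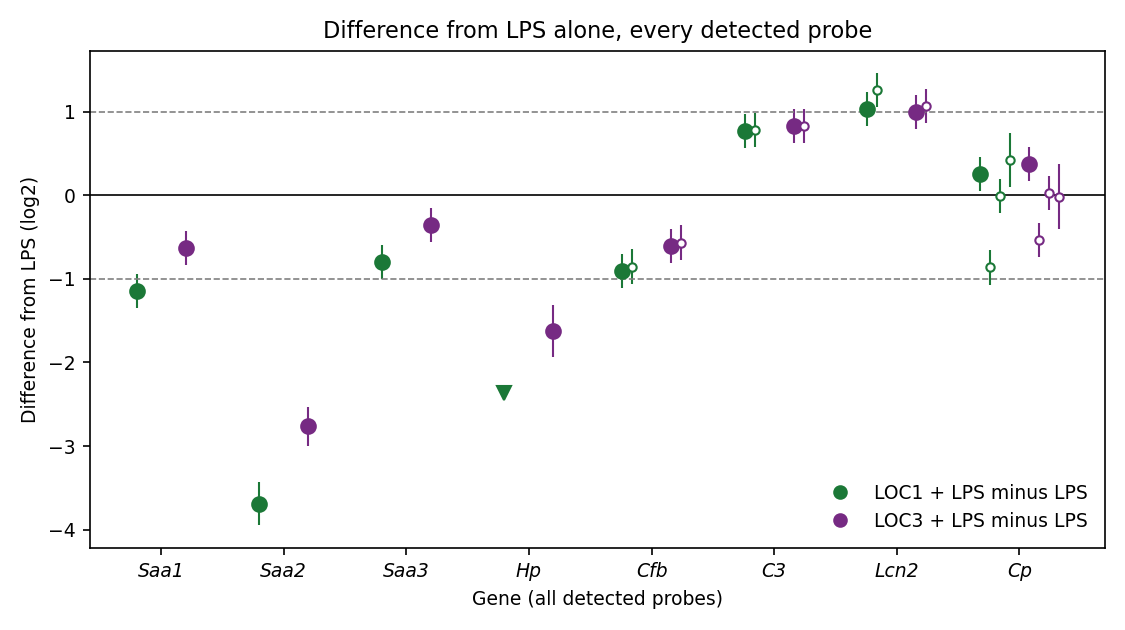
The log2 difference from the LPS array is plotted for each probe of 8 acute phase genes detected on at least 1 array, green for LOC1 and purple for LOC3. Large points are the brightest probe of a gene, small open points its other probes, the triangle a bound, bars the scanner's standard error, and dashed lines 2-fold; the amyloid genes, *Hp* and *Cfb* lie below 0, *C3* and *Lcn2* above it, and the probes of *Cp* on both sides.

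Between LOC1 and LOC3, given for the same times, 0 of the 8 genes were 2-fold apart, beside 0.8% of 19381 genes past 2-fold upward and 1.83% downward with LOC1 relative to LOC3. The median difference of the 8 genes was -0.37, beside -0.02 over all genes compared. The value was lower with LOC1 in 7 of the 8, among them *C3* and *Cp* (-0.12), which lay within the scanner error. *Saa2* was the furthest apart, at -0.93 (SE 0.28), and under normexp background correction at -0.40. *Saa1* and *Saa3* differed by -0.51 and -0.45 (SE 0.20 each), where the error covers the spots and not the cultures. *Hp* was at least 1.68-fold lower with LOC1 (SE 0.44 on the log2 scale), a bound of -0.29 on that scale under normexp. For *Lcn2* and *C3* the differences were 0.03 and -0.06 (SE 0.20 each), within the error of a spot.

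The genes with pairs of differences nearest to those of a member were looked for among the 17398 other genes detected on every array, by Euclidean distance over the LOC1 and LOC3 differences. For *Saa2* they were *Il1r2* (distance 0.22), *Adora2b* (0.40) and *AF039839* (0.49), all 3 at least 2-fold lower with both strains. For *Lcn2* they were *Tmem67*, *Tlr3* and *Ifi209*, with differences from 1.02 to 1.03 with LOC1. *C3* lay nearest to *Agrp*, *Enc1* and *Bcorl1*. A likeness over a pair of differences from a shared array is a description only.

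Of 15 cytokines, receptors and factors that induce or regulate acute phase genes, 13 could be compared. With each strain 1 was at least 2-fold higher and 1 lower, counted as above. The shares over all genes were 2.49% higher and 3.81% lower with LOC1, and 2.97% higher and 3.18% lower with LOC3. *Il6*, the main inducer in liver, read 36658 for LPS, 89676 for LOC1 and 80066 for LOC3. Its differences were 1.40 and 1.23, whereas *Il6ra*, its receptor, differed by -1.24 and -1.0. The other *Il6ra* probe was under 2-fold, at -0.63 with LOC1 and -0.97 with LOC3. *Il1b*, the other classical inducer, had differences of -0.95 and -0.71 on its brightest probe and of -2.59 and -2.55 on its lowest. *Tnf* differed by 0.94 and 0.79, *Socs3*, the feedback inhibitor of STAT3, by -0.83 and -0.44, and *Nfkbiz*, a co-activator of NF-κB, by 0.23 and 0.35. *Cebpb* differed by -0.29 and -0.27 and *Cebpd* by -0.44 and 0.01. *Osm*, the cytokine oncostatin M, was named after its values were seen and differed by 0.31 and 0.19, with -0.15 for its other probe with LOC3. On their brightest probes the cytokines *Il6*, *Tnf* and *Osm* lay above their LPS values and *Il1b* below its own.

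Among 11 receptors and clearance genes that could be compared, 2 were higher and 1 lower with both strains. Over 19421 genes the shares were 1.13% higher and 2.48% lower with both. *Fpr2*, a receptor through which serum amyloid A acts on leukocytes, read 4303 with LPS, 12683 with LOC1 and 11861 with LOC3, differences of 1.67 and 1.57. *Fpr1*, its relative for formylated peptides, read 960, 2250 and 2401, differences of 1.34 and 1.43. *Lrp1*, a scavenger receptor that takes up haemopexin with haem, read 4242, 1636 and 1778, differences of -1.26 and -1.15. Its 3 probes ranged from -2.27 to -0.53 with LOC1 and from -1.72 to -0.08 with LOC3. *Fpr2* was thus higher with both strains, while *Saa2* was lower with both.

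Of the 17 other complement genes on the array that are reported here, 12 could be compared with LOC1, with 1 higher and 0 lower, and 11 with LOC3, with 0 past 2-fold in either direction. Of 24 other acute phase genes 12 could be compared, with 1 higher and 1 lower with LOC1, and 1 higher and 0 lower with LOC3. Over all genes compared, 2.49% were higher and 3.81% lower with LOC1, and 2.97% higher and 3.18% lower with LOC3. *Serpina3g*, a serine protease inhibitor, read 3074, 7117 and 6660 and was higher by 1.32 and 1.22. The others past 2-fold with LOC1 were named after their values were seen. They were *Cd46*, a complement regulator, at least 3.50-fold higher at an intensity of 52.8, and *Hamp*, the iron hormone hepcidin, at least 2.16-fold lower from an intensity of 33.9. The medians of these 4 lists lay between -0.18 and 0.17 with LOC1 and between -0.07 and 0.06 with LOC3.

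**Figure D4:**
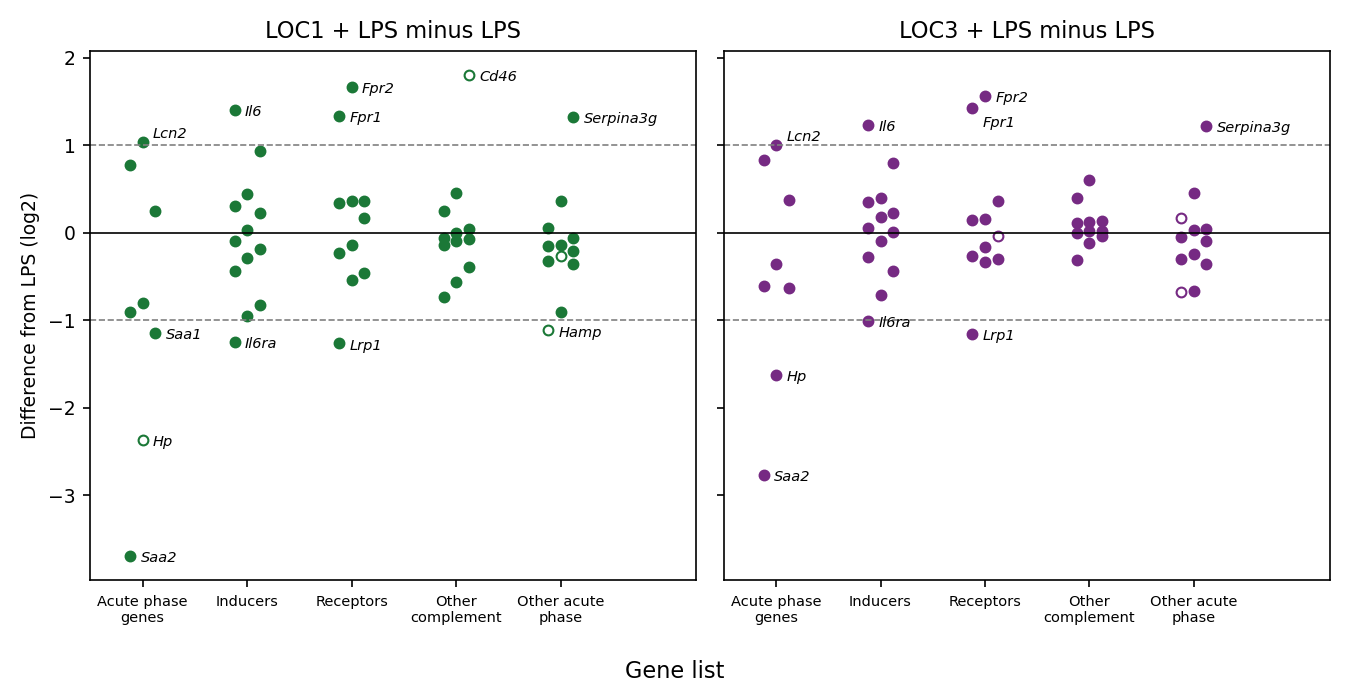
The log2 difference from the LPS array is plotted for the 8 measured acute phase genes and for the genes of 4 related lists, LOC1 on the left and LOC3 on the right. Open points are bounds or values not well above background on the compared arrays, dashed lines are 2-fold, and genes past 2-fold are named; *Saa2* and *Hp* lie lowest of the genes plotted.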

How the data were processed

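RNA of 3 RAW264.7 cultures (LPS, LOC1 + LPS and LOC3 + LPS) was hybridised to Agilent mouse arrays with 1 colour, 1 array per condition, all on the same slide and from the same scan. The authors deposited spot intensities from which Feature Extraction had taken the background, unscaled between arrays. The deposited log2 ratios to unchallenged macrophages were made by the authors in GeneSpring and list only values past 2-fold. Differences between their columns matched those of the intensities after a constant shift of 0.03 (LOC1) and 0.04 (LOC3). The submitters' processing notes also name limma and R 3.2.5. Which value was assigned to signals at background in the ratios is not given in the sources used here.

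Spots marked as outliers by the scanner software (135, 118 and 133 on the LPS, LOC1 and LOC3 arrays) were left out, the log2 intensity was centred on the 75th percentile of each array (an intensity of 555, 513 and 516), and the brightest probe stood for its gene. Signals not well above background were raised to the dimmest one called well above background on their array (16.3, 14.5 and 19.8) where they lay under it. Differences from them are given as bounds (at least N-fold). Some undetected signals lay above that value, 1 of them at 16.2 on the LOC1 array, so the bounds hold only under this rule. Counts at 2-fold covered genes detected on either of the arrays compared. The number of arrays limits the precision. Named genes beside the members and the cell type markers included those of 4 lists at least 2-fold changed the same way with both strains. Also named were 7 genes of the inducer list whatever their values, and the 3 nearest genes of *Saa2*, *Lcn2* and *C3*. *Osm*, *Cd46* and *Hamp* were outside these rules and were named after their values were seen. The members, lists and rules were chosen with earlier results of these data known. From the list of other complement genes, 1 gene is not reported here. Promoters were those of RefSeq, held for 7 of the 10 members, and *Hp*, *Cfb* and *Orm1* had no entry. The calculation was tested on simulated data. Python 3.11.15, numpy 2.4.6, pandas 2.3.3, matplotlib 3.10.9, R 4.3.3 and limma 3.58.1 (normexp, offset 50) were used. The alternatives tried were other scalings, normexp, no filter and floor, genes well above background on both arrays, the mean of detected probes, outlier spots kept, the deposited ratios, a 3-fold threshold and probes in place of genes.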

Additional observations from a re-analysis of the deposited data

How the results depend on the processing

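No paired analysis was possible because each condition has 1 array. Of the 16 differences of the 8 measured genes from LPS, 14 kept their sign and 10 kept their side of 2-fold under each of 9 alternatives that could be run for them, and the exceptions in sign were those of *Cp*. The mean over the detected probes of *Cp* gave -0.05 (LOC1) and -0.04 (LOC3), and in the deposited ratios, which list other probes than the brightest, *Cp* was at -0.83 and -0.49. *Lcn2* was at 0.97 and 0.92 with the 75th percentile taken over probes detected on all arrays. The median intensities of the LPS, LOC1 and LOC3 arrays were 26.7, 21.2 and 21.8, where the dimmest detected signals were 16.3, 14.5 and 19.8. Scaling by array medians moved the median of all genes to 0.22 with both strains. The median difference of the members with LOC1 was then -0.64, and it was -0.93 under quantile normalization, -0.92 with the percentile over detected probes, and -0.42 with no filter and floor, where *Ptx3* and *Orm1* enter. With LOC3 these medians were -0.30, -0.57, -0.56 and -0.39. With LOC1, 0 genes were higher under quantile normalization, with the percentile over detected probes and at 3-fold, against 1, and with probes in place of genes 2 probes were. With LOC3, 2 genes were higher under array medians, 0 under quantile normalization, 0 with the percentile over detected probes, 0 at 3-fold, and 2 probes with probes in place of genes. Under normexp 1 gene was lower with LOC3, against 2. With LOC1, 2 genes were lower, against 3, under array medians, under normexp, at 3-fold and among genes well above background on both arrays. Normexp was run with an offset of 50 added to each signal. That offset by itself shrinks differences between dim signals, among them those of *Saa2* and *Hp*. The cause of these moves was otherwise not tested, apart from those that follow from the threshold, the genes entered or the probe taken. *Saa2* stayed between -3.76 and -2.29 with LOC1 and between -2.85 and -1.90 with LOC3. The low signals of *Saa2* and *Hp* with the strains, close to background, limit how well their falls are measured.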
